A study of Mus musculus with 15 samples.

Results

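Heart RNA from 15 mice was measured for 10 genes of the cytosolic heat shock response: Hspa1a, Hspa1b, Hspa8, Hsph1, Dnajb1, Hspb1, Cryab, Hspb7, Bag3 and Hsf1. They cover HSP70 chaperones, an HSP110 and a J-domain partner, small heat shock proteins, a BAG co-chaperone and the transcription factor of the response. A probe was taken for a gene where its name in the array files was that symbol, which gave 19 of the 41174 probes, for 9 of the genes. Of these 19, 18 had enough heart signal to be tested. No probe bore the name Hsph1. One probe bears the older name Hsp110 and carries an accession of Hsph1, so it is reported beside the others but is not counted with them. No probe was chosen by its values.

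The hearts came from rosiglitazone-treated db/db mice (C57BL/KLS-leprdb/leprdb, 5 mg per kg per day in the chow for 4 months), from untreated db/db mice of the same genotype, and from non-diabetic db/+ mice (C57BL/KLS-leprdb/lepr+), which keep 1 working copy of the leptin receptor gene Lepr, with 5 hearts in each group. The db/db mouse lacks the signalling form of the leptin receptor in every tissue and becomes obese and insulin resistant, and rosiglitazone is an activator of the nuclear receptor PPAR-gamma, so a change in the heart cannot be placed in the heart muscle itself. The db/+ mice also carry the mutant allele, and the labels give no age and no sex. Whole hearts were used, in which fewer cells of a type and less RNA per cell cannot be told apart.

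Heat shock proteins hold unfolded proteins in solution and help them refold. The HSP70 chaperones bind and release their clients in a cycle of ATP hydrolysis, J-domain proteins such as Dnajb1 deliver clients and start the hydrolysis, and HSP110 and BAG proteins release the nucleotide again. Under protein stress the factor Hsf1 binds heat shock elements, repeats of the letters GAA and its complement TTC, and switches on several of these genes, while heart muscle holds large amounts of the small heat shock proteins Cryab, Hspb1 and Hspb7 at rest.

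The letters of heat shock elements can be seen directly in the windows around the starts of these genes. Of the 10 genes, 7 had an entry in the RefSeq promoter table (GRCm38.p6), which holds 250 bases before and 50 after each start. The letters GAANNTTC and TTCNNGAA, which are the 2 ways in which a pair of the repeats can face each other and each of which reads the same on both strands, were searched for, together with the run of 3 repeats TTCNNGAANNTTC, on both strands, which contains both of them. GAANNTTC was in 7.86% of all 32851 windows, TTCNNGAA in 8.52% and the run of 3 in 0.603%. A match is a description of the letters, not a measured binding site.

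Hspa1a and Hspa1b, the stress-inducible HSP70 genes, are neighbours on chromosome 17 and are shown because their upstream sequences are near copies that share 1 match. They lie at chr17:34972157-34972406 and chr17:34959239-34959488 on the minus strand of GRCm38.p6, each is the 250 bases before the start of its gene, and 3 of the 250 differ. The capitals mark GAANNTTC, whose first base lies at -104 from the start in both genes.
Hspa1a: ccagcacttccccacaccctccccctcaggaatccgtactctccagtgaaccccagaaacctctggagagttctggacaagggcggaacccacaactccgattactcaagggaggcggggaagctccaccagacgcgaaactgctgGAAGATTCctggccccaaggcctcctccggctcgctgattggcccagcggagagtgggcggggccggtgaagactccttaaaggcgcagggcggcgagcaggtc
Hspa1b: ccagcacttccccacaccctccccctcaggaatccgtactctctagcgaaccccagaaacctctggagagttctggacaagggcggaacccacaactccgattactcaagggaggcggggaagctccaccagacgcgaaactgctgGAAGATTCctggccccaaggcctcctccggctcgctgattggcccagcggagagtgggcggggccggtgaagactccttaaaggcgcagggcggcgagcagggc

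Hspb1 and Hsph1 are shown for the windows with more than 1 match. In Hspb1, GAANNTTC occurred at -117 and again at -97, in chr5:135887782-135887851 on the plus strand of GRCm38.p6. In Hsph1, the run of 3 repeats began 37 bases after the start in 1 entry and 16 bases after it in the other, in chr5:149636287-149636316 on the minus strand of the same build. Hsph1 also had TTCNNGAA before the start, at -33 in the first of these entries and -54 in the other, outside the stretch shown. Capitals mark the matches.
Hspb1: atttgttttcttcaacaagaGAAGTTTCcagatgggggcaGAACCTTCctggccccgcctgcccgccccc
Hsph1: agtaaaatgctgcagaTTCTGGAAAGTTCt
Bag3 had GAANNTTC at 43 bases after its start, and none of the letters searched for was in the windows of Dnajb1 or Hspb7.

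The probes that measured Hspa8 and Cryab are shown because the results for these 2 genes depend on the probe. In the coordinates of the array files (mm8, plus strand), the Hspa8 probes lie at chr9:40554128-40554187 (probe 1) and chr9:40555660-40555719 (probe 2), where probe 1 is the one with the brighter heart signal here and for every gene below. Cryab probe 1 lies at chr9:50508565-50508624. Of Cryab probe 2, at chr9:50505406-50505465, the first 30 bases are given, since they hold the run of 3 repeats, in capitals, which 1 of the 20 probes described and 80 of all array probes (0.194%) contain.
Hspa8 probe 1: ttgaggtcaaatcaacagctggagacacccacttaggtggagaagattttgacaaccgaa
Hspa8 probe 2: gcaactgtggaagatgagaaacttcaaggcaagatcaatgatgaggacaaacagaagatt
Cryab probe 1: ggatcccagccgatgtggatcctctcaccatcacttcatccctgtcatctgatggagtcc
Cryab probe 2: accaTTCCAGAAGCTTCagaagactgcata

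Every value below is a log2 ratio of a heart over a mouse reference RNA that was the same on all arrays, so 0 means as much signal as in the reference, and a difference of 1 between groups is a doubling. Such ratios are compared between hearts at 1 probe and not between probes. Between the arrays of treated replicates 3 and 4, the log2 differences in the heart channel had a spread (scaled median absolute deviation) of 0.115. The other pairs within a group had a spread of 0.233 to 0.569. In the reference channel, with the same RNA on all arrays, 99 of 105 pairs had a spread of at least 0.115 (median 0.171). The reference channel of replicates 3 and 4 also had the lowest spread of all pairs, 0.093, so these 2 arrays were close in both channels. Since the 2 hearts differed no more than arrays of the common reference did, they were averaged and counted as 1 heart, which leaves 4 treated hearts. The paper describes all hearts as distinct RNA samples, and whether these 2 are 1 heart was not tested. Differences were tested with limma over the 27593 tested probes, and a probe is called at an adjusted p under 0.05. The arrays lay on 4 slides, of which slide 1 held only db/+ hearts and slide 4 only treated hearts, so slide and group are largely confounded. On slide 2, 3 untreated hearts lay beside 1 db/+ heart, and on slide 3, 2 treated beside 2 untreated hearts.

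Markers of other cells differed between these hearts. The mean of 7 cardiomyocyte markers ranged over 5.62 to 6.10 in treated, 4.17 to 6.40 in untreated and 3.72 to 6.84 in db/+ hearts, with 0 of 7 called. The mean of the hepatocyte markers was 0.85 to 3.96 in treated, 2.20 to 5.97 in untreated and 0.30 to 2.36 in db/+ hearts, with 4 of its 7 genes tested and 1 called higher in untreated than in db/+ hearts. The mean of the adipocyte markers was 1.08 to 1.46 in treated, 1.13 to 2.89 in untreated and 2.14 to 3.41 in db/+ hearts, and 2 of its 5 tested genes were lower in treated and 2 in untreated than in db/+ hearts. The mean of the B cell markers was -2.03 to -1.76 in treated, -2.45 to -1.89 in untreated and -1.66 to -1.07 in db/+ hearts, and 2 of 3 genes were lower in either db/db group than in db/+ hearts. The mean of the pancreas acinar markers, 2 of 4 genes tested, was -0.45 to 0.12 in treated, -0.69 to 0.54 in untreated and -0.70 to 0.45 in db/+ hearts, and 1 gene was higher in either db/db group than in db/+ hearts. Of the 6 skeletal muscle markers 1 was lower in either db/db group than in db/+ hearts. Their part in the results below was not tested.

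Few of the heat shock genes differed between the groups. In untreated against db/+ hearts, 1 of the 18 member probes was called higher, Cryab probe 2, and 0 lower, beside 7.76% of all probes tested (4.37% higher and 3.39% lower), and an unadjusted p under 0.05 was reached by 4 of 18 and by 25.5% of all. In treated against untreated hearts 0 of 18 were called, beside 0.0% of all probes, and an unadjusted p under 0.05 was reached by 1 of 18 member probes and by 8.78% of all. SAM, run as an alternative, called 3 probes of the whole array higher in treated than in untreated hearts and 0 of the members. In treated against db/+ hearts 1 of 18 was called lower, Hspa8 probe 2, and 0 higher, beside 8.7% of all probes (4.21% lower and 4.49% higher), with an unadjusted p under 0.05 for 3 of 18 and for 26.8% of all. The share of 5.56% in the 2 comparisons with db/+ hearts is thus near the background. Median differences of the 18 probes were 0.02, -0.18 and -0.10 in these 3 comparisons, beside 0.01, -0.01 and 0.01 over all tested probes. Hsph1, outside the count, was lower in both comparisons with db/+ hearts. These 2 comparisons share the db/+ hearts and are not independent.

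**Figure D1:**
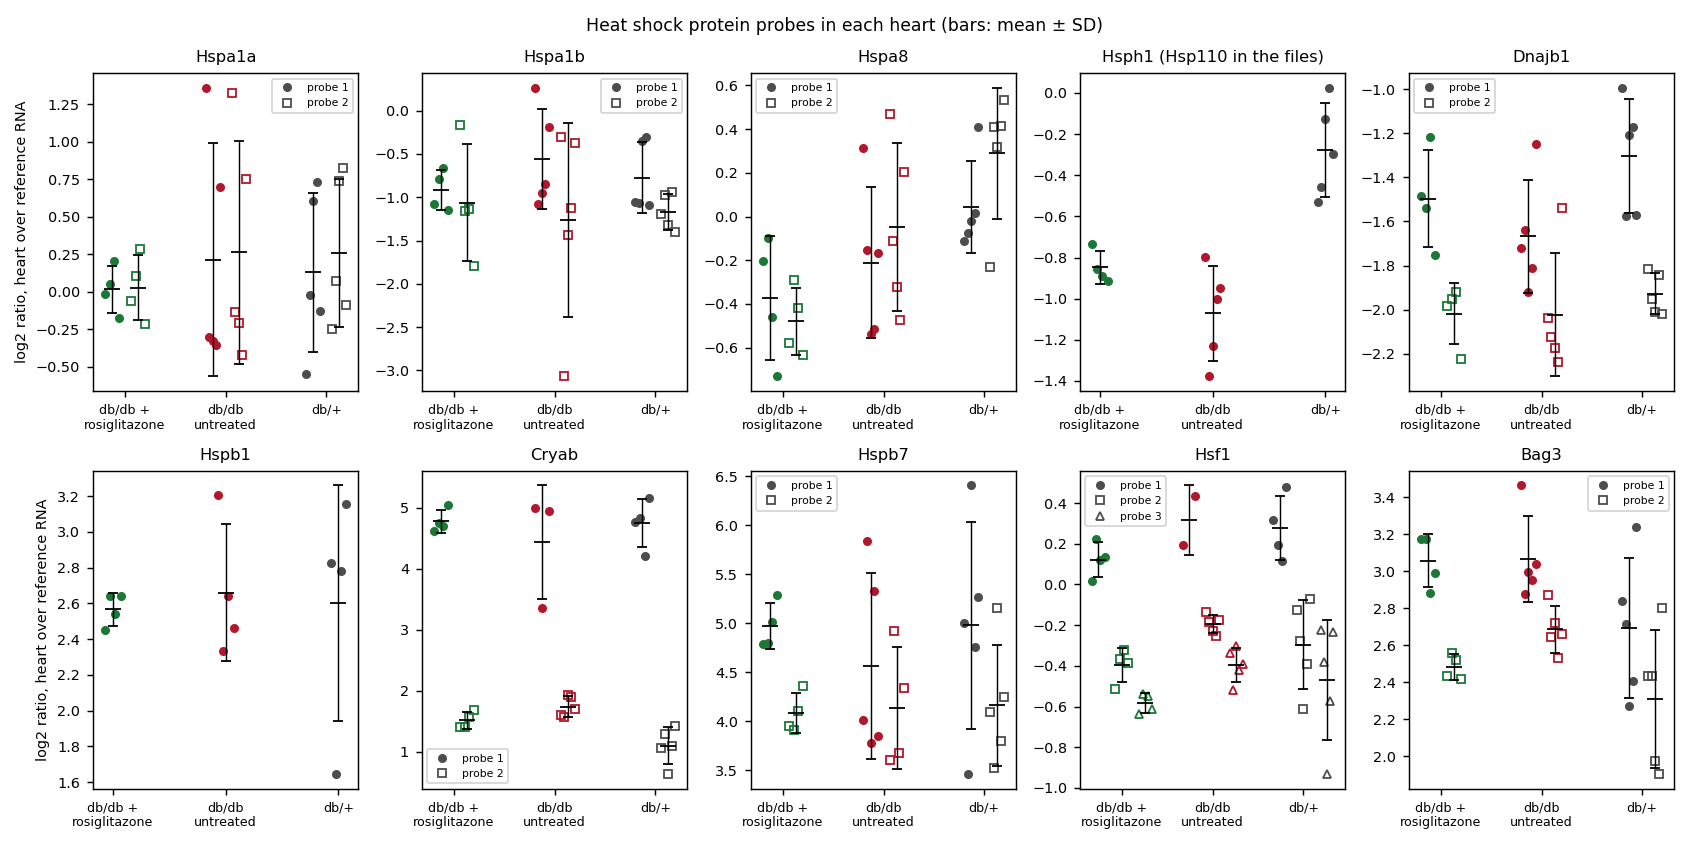
Log2 ratio of heart over reference RNA (y axis) in each heart, by gene, with filled circles for probe 1, open squares for probe 2 and open triangles for probe 3, and bars for the mean and SD of the group. Cryab probe 2 lies above all db/+ hearts in each untreated heart, Hsph1 lies below all db/+ hearts in each db/db heart, and Hspa1a has its highest value in untreated heart 1.

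Hspa1a and Hspa1b encode the stress-inducible HSP70 and did not pass the test in any comparison. Hspa1a probe 1 had ratios of -0.02, 0.05, 0.21 and -0.17 in treated hearts. In untreated hearts it had 1.36, -0.30, -0.33, -0.35 and 0.70, and in db/+ hearts -0.55, -0.02, 0.60, 0.73 and -0.13. Untreated hearts 1 and 5 and db/+ hearts 3 and 4 were high, and all 3 groups overlapped. The SD was 0.16 in treated (n = 4), 0.78 in untreated and 0.53 in db/+ hearts (n = 5 each), and whether the spreads differ was not tested.

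The difference at Hspa1a probe 1 was 0.09 ± 0.33 (SE) between untreated and db/+ hearts (95% interval -0.63 to 0.80), -0.20 between treated and untreated hearts (-0.95 to 0.56) and -0.11 between treated and db/+ hearts (-0.87 to 0.65). The adjusted p in limma was 0.904, 0.936 and 0.871 in these comparisons. Each interval reaches at least 0.56 to either side of 0, so changes of that size in either direction lie within the intervals. Probe 2 of Hspa1a overlaps probe 1 by 30 bases and is no separate evidence. It ranged over -0.21 to 0.29 in treated, -0.42 to 1.32 in untreated and -0.25 to 0.82 in db/+ hearts.

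Hspa1b probe 1, which also lists an accession of Hspa1a and so cannot separate the 2 genes, had -1.07, -0.79, -0.66 and -1.14 in treated hearts. Untreated hearts had 0.27, -1.08, -0.95, -0.85 and -0.19, and db/+ hearts -1.05, -1.06, -0.35, -0.31 and -1.08. The same 4 hearts, untreated 1 and 5 and db/+ 3 and 4, were again the highest, and the groups overlapped. Its differences were 0.21 between untreated and db/+ (adjusted p = 0.646, limma), -0.36 between treated and untreated (0.778) and -0.15 between treated and db/+ hearts (0.773). Hspa1b probe 2 was well above background on 10 of the 15 arrays and varied more, between -1.79 and -0.16 in treated, -3.07 and -0.31 in untreated and -1.41 and -0.93 in db/+ hearts.

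Hspa8, the constitutive HSP70 that serves protein folding, clathrin uncoating and chaperone-mediated autophagy, fell in the treated group relative to db/+ at 1 of its 2 probes. At probe 2 the treated hearts had -0.58, -0.29, -0.42 and -0.63. Untreated hearts had 0.47, -0.11, -0.32, -0.47 and 0.20, and db/+ hearts -0.23, 0.41, 0.32, 0.41 and 0.53. All treated hearts lay below all db/+ hearts, as 6.98% of all probes did, and untreated hearts overlapped with both groups.

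Treated hearts averaged -0.48 ± 0.15 (SD, n = 4) and db/+ hearts 0.29 ± 0.30 (SD, n = 5) at this probe, a difference of -0.77 ± 0.19 (SE), or 1.70-fold lower (adjusted p = 0.0281, limma). Between treated and untreated hearts it was -0.43 (adjusted p = 0.552, limma) and between untreated and db/+ hearts -0.34 (adjusted p = 0.267). Probe 1 had -0.20, -0.10, -0.46 and -0.73 in treated hearts, 0.31, -0.15, -0.54, -0.51 and -0.17 in untreated hearts and -0.11, -0.08, -0.02, 0.01 and 0.41 in db/+ hearts. There the treated and db/+ groups overlapped, with a difference of -0.42 (95% interval -0.81 to -0.02, adjusted p = 0.165, limma). So both probes were lower in treated hearts, and only probe 2 passed. Deviations from the group means had r = 0.61 (rho 0.67) between Hspa8 probe 2 and the mean of the pancreas acinar markers and r = 0.78 (rho 0.79) for probe 1 over 14 hearts. With the macrophage markers, r was -0.74 for Hspa8 probe 2 (rho -0.64, and r = -0.48 without the 2 farthest hearts). For probe 1 it was -0.53 (rho -0.36, and r = -0.11 without the 2 farthest hearts). The part of these cells in the result was not tested.

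The call at Hspa8 probe 2 depends on single arrays. It was lost when db/+ replicate 2, 3, 4 or 5 or treated replicate 1 or 5 was left out (difference -0.90 to -0.71, adjusted p up to 0.0817 in limma over all 15 arrays left out in turn), when db/+ replicate 3 and untreated replicate 2 were left out together (-0.76, adjusted p = 0.0597), with normexp background correction (-0.77, 0.0683) and with slide as a fixed block (-0.82, 0.992).

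Hsph1 encodes HSP110, which exchanges the nucleotide of HSP70 and helps it to dissolve aggregates. Its probe, named Hsp110 in the files, lies at chr5:149885230-149885289 on the minus strand (mm8). Treated hearts had -0.74, -0.85, -0.89 and -0.91, untreated hearts -0.80, -1.38, -1.23, -1.0 and -0.95, and db/+ hearts -0.53, -0.46, -0.13, 0.03 and -0.30. Each db/db heart, treated or not, lay below each db/+ heart, and the treated and untreated hearts overlapped. Treated hearts lay wholly below db/+ hearts at 6.98% of all probes, and the share for untreated hearts is not given here.

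The difference of Hsph1 between untreated hearts, at -1.07 ± 0.23 (SD, n = 5), and db/+ hearts, at -0.28 ± 0.23 (SD, n = 5), was -0.79 ± 0.13 (SE), 1.73-fold lower (adjusted p = 0.00295, limma). Between treated hearts, at -0.85 ± 0.08 (SD, n = 4), and db/+ hearts it was -0.57 ± 0.14, 1.49-fold lower (adjusted p = 0.0222). Between treated and untreated hearts it was 0.22 (95% interval -0.07 to 0.52, adjusted p = 0.695, limma). Within slide 2 the 3 untreated hearts averaged 0.84 below the 1 db/+ heart there. Only this slide held both groups, so the fit with slide as a fixed block rests on the same contrast and is no separate check. With slide as a fixed block the difference between untreated and db/+ hearts was -0.84 with an adjusted p of 0.352 in limma, and leaving out any of the 15 arrays kept the call, at -0.86 to -0.72. The call against db/+ in treated hearts was lost without db/+ replicate 4 or treated replicate 2 or 5 (-0.64 to -0.50 over the 15 arrays left out, adjusted p up to 0.0649), with normexp (-0.55, 0.0786) and with the slide block (-0.66, 0.983).

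Dnajb1, the main cytosolic HSP40 of the heat shock response, had -1.49, -1.54, -1.21 and -1.75 in treated hearts at probe 1. Untreated hearts had -1.72, -1.64, -1.92, -1.81 and -1.25, and db/+ hearts -0.99, -1.58, -1.21, -1.17 and -1.57. All untreated hearts but replicate 5 lay below all db/+ hearts. The difference between untreated and db/+ hearts was -0.36 ± 0.15 (SE) with an adjusted p of 0.154 in limma. At probe 2 it was -0.09 (95% interval -0.36 to 0.17, adjusted p = 0.675, limma), and the groups ranged over -2.22 to -1.92 in treated, -2.24 to -1.54 in untreated and -2.02 to -1.82 in db/+ hearts. Treated and untreated hearts differed by 0.17 at probe 1 and by 0.00 at probe 2.

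**Figure D2:**
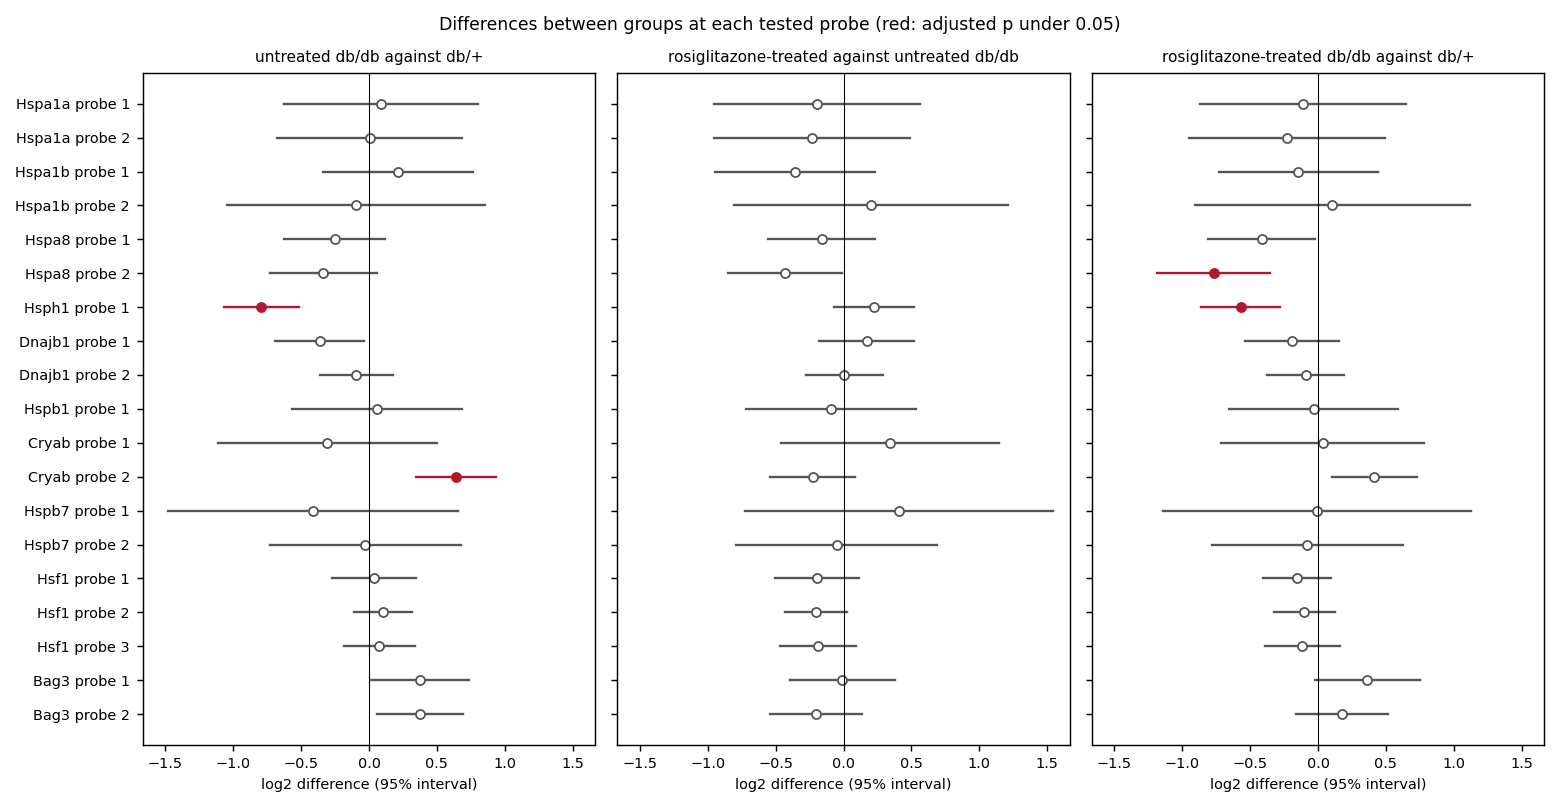
Log2 differences between groups (x axis) with their 95% intervals from limma at each tested probe (y axis), in 3 panels for the 3 comparisons, with red filled circles for an adjusted p under 0.05. Red are Cryab probe 2 and Hsph1 in untreated against db/+ hearts and Hspa8 probe 2 and Hsph1 in treated against db/+ hearts, and the middle panel has no red point.

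Cryab, alphaB-crystallin, is the small heat shock protein that guards desmin and the sarcomere, and 1 of its 2 probes was called, higher in untreated than in db/+ hearts. The called probe is the dimmer one, with a mean heart log2 signal of 11.40 against 18.24 for probe 1. The difference at probe 2 was not seen at probe 1, described below. Which transcripts each probe reports was not tested. Cryab probe 2 had 1.40, 1.40, 1.56 and 1.68 in treated hearts. In untreated hearts it had 1.60, 1.57, 1.93, 1.90 and 1.70, and in db/+ hearts 1.07, 1.28, 0.63, 1.1 and 1.41. All untreated hearts lay above all db/+ hearts, as 4.33% of all probes did, and the treated hearts overlapped with both groups.

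Untreated hearts averaged 1.74 ± 0.17 and db/+ hearts 1.1 ± 0.30 (SD, n = 5 each) at Cryab probe 2, a difference of 0.64 ± 0.14 (SE), 1.56-fold (adjusted p = 0.0141, limma). The difference was 0.41 between treated and db/+ hearts (adjusted p = 0.0904) and -0.23 between treated and untreated hearts (adjusted p = 0.711). It kept its call without any of the 15 arrays (0.52 to 0.72, adjusted p 0.0104 to 0.0381 in limma). Over 14 hearts its deviations had r = 0.85 (rho 0.57, and r = 0.56 without the 2 farthest hearts) with the smooth muscle markers. The mean of these markers was 0.03 to 0.35 in treated, 0.34 to 0.76 in untreated and -0.38 to 0.87 in db/+ hearts, with 0 of 4 called. With the B cell markers r was 0.60 (rho 0.77, and r = 0.74 without the 2 farthest hearts). The part of either cell type was not tested. Within slide 2 the difference was 0.29, and with slide as a fixed block it was 0.29 with an adjusted p of 0.901. Both of these differences are 1 contrast, since only slide 2 held both groups, with 1 db/+ heart. Treated against db/+ hearts, Cryab probe 2 passed when treated replicates 3 and 4 were kept as separate hearts (0.42, adjusted p = 0.0472, limma) and with slide as a random block (0.44, 0.0284).

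Cryab probe 1, the brighter one, 3099 bases away in mm8, had no value on 3 arrays, where its spot was marked as an outlier. It had 4.61, 4.74, 4.70 and 5.04 in treated hearts, 4.99, 3.36 and 4.94 in untreated hearts 2, 3 and 4 and 4.76, 4.83, 4.21 and 5.16 in db/+ hearts 1, 3, 4 and 5. The groups overlapped, and untreated heart 3 was low. Its difference between untreated and db/+ hearts was -0.31 (95% interval -1.12 to 0.50, adjusted p = 0.637, limma), and without untreated replicate 3 it was 0.23 (adjusted p = 0.606), so that heart sets its sign. Over the 11 hearts with both values, the deviations of the 2 probes from their group means had r = -0.06 and rho = -0.06 (0.35 without the 2 hearts farthest out). The gene Hspb2 is the neighbour of Cryab on chromosome 9.

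Hspb1, known as HSP25 in the mouse, caps and steadies actin filaments. It was measured by 1 probe, since its second probe, at chr13:45092042-45092101 on another chromosome than the gene, was well above background on 0 of 15 arrays. Treated hearts had 2.45, 2.64, 2.54 and 2.64, untreated hearts 2 to 5 had 3.20, 2.33, 2.64 and 2.46, and db/+ hearts 1, 2, 3 and 5 had 2.82, 1.64, 2.78 and 3.15. The groups overlapped, and db/+ heart 2 was low. The differences were 0.06 between untreated and db/+ hearts, -0.09 between treated and untreated hearts and -0.03 between treated and db/+ hearts, with adjusted p values of 0.924, 0.965 and 0.956 in limma and 95% intervals that lie within -0.72 to 0.68.

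Hspb7, the cardiovascular small heat shock protein, varied widely among untreated and among db/+ hearts and had no called difference. Its probe 1, present in 10 spots on each array, had 4.79, 4.79, 5.01 and 5.29 in treated hearts. In untreated hearts it had 4.01, 5.84, 3.78, 5.32 and 3.85, and in db/+ hearts 5.0, 3.46, 6.40, 4.75 and 5.27. Untreated heart 2 and db/+ heart 3 were high and db/+ heart 2 was low. The 3 to 10 spots used on an array had an SD of 0.036 to 0.293 (median 0.0697). Untreated hearts 1, 3 and 5, the low ones of their group, kept 5, 4 and 3 spots, with an SD of 0.20, 0.29 and 0.29. Untreated hearts 2 and 4 kept 10 spots each (SD 0.07 and 0.06), and db/+ heart 2 kept 8 (SD 0.17). The part of the dropped spots in these values was not tested. The SD over hearts was 0.24 in treated, 0.95 in untreated and 1.06 in db/+ hearts. The differences at probe 1 were -0.41, 0.41 and -0.01 in untreated against db/+, treated against untreated and treated against db/+ hearts, with adjusted p values of 0.640, 0.894 and 0.996 in limma. Probe 2 ranged over 3.91 to 4.36 in treated, 3.60 to 4.92 in untreated (n = 4) and 3.52 to 5.15 in db/+ hearts.

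The spread of Hspb7 ran with that of several marker lists. Over 14 hearts, deviations from the group means at Hspb7 probe 1 and in the mean of the 7 cardiomyocyte markers had r = 0.96 and rho = 0.96 (r = 0.93 without the 2 farthest hearts). With the erythroid markers, of which 2 of 4 genes were tested, r was 0.98 (0.97 without the 2 farthest hearts), with the skeletal muscle markers 0.86 and with the endothelial markers 0.73. Hspb7 probe 2 had r = 0.96 with the erythroid markers. With the cardiomyocyte markers, r for Hspb7 probe 2 was 0.90 (n = 13), for Hspb1 0.86 (rho 0.80, n = 12) and for Cryab probe 1 0.83 (rho 0.86, n = 11). Cryab probe 2 had r = -0.34 (rho -0.28, n = 14). Hspb1 ran with other lists too, with r = 0.85 (rho 0.79) for the endothelial and 0.72 for the erythroid markers. For Hspb1 r was also 0.715 with the adipocyte and 0.695 with the skeletal muscle markers. These are descriptions over hearts that share the arrays and the reference RNA. The spread of all ratios on an array had r = 0.45 with Hspb7 probe 1 (rho 0.24, and -0.12 without the 2 farthest hearts).

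**Figure D3:**
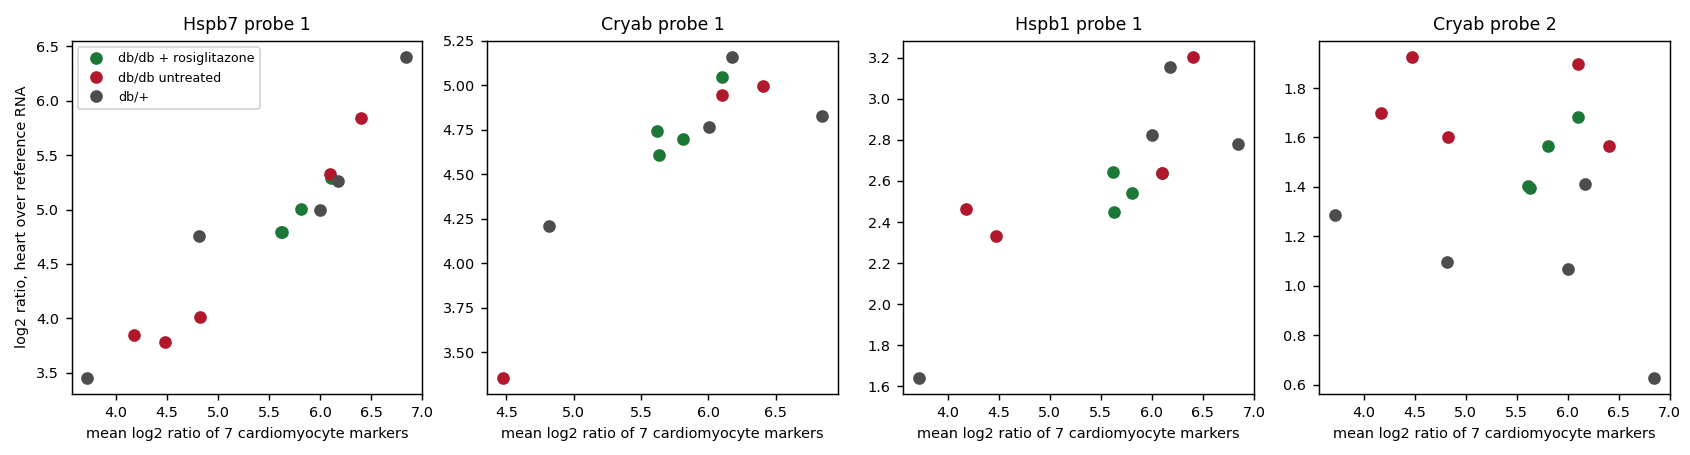
Log2 ratio of a small heat shock protein probe (y axis) against the mean log2 ratio of 7 cardiomyocyte markers (x axis), 1 point for each heart, coloured by group, in 4 panels. Hspb7 probe 1, Cryab probe 1 and Hspb1 climb with the markers, whose mean was lowest in db/+ heart 2 (3.72) and highest in db/+ heart 3 (6.84), and Cryab probe 2 does not.

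Bag3, the co-chaperone that joins HSP70 to small heat shock proteins in chaperone-assisted autophagy of muscle filaments, was higher in untreated hearts on average but did not pass at either probe. Probe 1 had 3.18, 3.17, 2.88 and 2.99 in treated hearts, 3.46, 2.88, 2.99, 2.95 and 3.04 in untreated hearts and 2.84, 2.71, 2.27, 2.41 and 3.24 in db/+ hearts. Probe 2 had 2.43, 2.56, 2.52 and 2.42 in treated hearts, 2.87, 2.64, 2.72, 2.53 and 2.66 in untreated hearts and 2.43, 2.43, 1.97, 1.90 and 2.80 in db/+ hearts. Only db/+ heart 5 lay among the untreated hearts at both probes.

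The difference of Bag3 between untreated and db/+ hearts was 0.37 ± 0.17 (SE) at probe 1 (adjusted p = 0.187, limma) and 0.38 ± 0.15 at probe 2 (adjusted p = 0.131). Probe 2 passed when db/+ replicate 5 was left out (0.50, adjusted p = 0.0351), and both probes passed with slide as a random block (0.46 and 0.45, adjusted p = 0.0472 and 0.0333, limma). Within slide 2, where db/+ heart 5 was the only db/+ heart, the differences were -0.13 and -0.06. Treated and untreated hearts differed by -0.01 at probe 1 (95% interval -0.39 to 0.38) and by -0.20 at probe 2 (-0.54 to 0.13).

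Hsf1, the transcription factor of the heat shock response, had nearly the same difference between treated and untreated hearts at each of its 3 probes, -0.19, -0.20 and -0.19, and none passed (adjusted p = 0.761, 0.620 and 0.741, limma). The paper, by contrast, lists Hsf1 as significantly lower in treated than in untreated db/db hearts. It used SAM with 5 treated hearts and does not state the false discovery rate. The SAM run here used 4 treated hearts and a rate of 0.05. Probe 2 had -0.52, -0.37, -0.32 and -0.39 in treated hearts, -0.14, -0.19, -0.23, -0.25 and -0.17 in untreated hearts and -0.12, -0.28, -0.61, -0.39 and -0.07 in db/+ hearts. Every treated heart lay below every untreated heart at probe 2.

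The same held at Hsf1 probe 3, with -0.64, -0.54, -0.55 and -0.61 in treated hearts, -0.34, -0.52, -0.30, -0.42 and -0.39 in untreated hearts and -0.23, -0.38, -0.93, -0.57 and -0.23 in db/+ hearts. These 2 probes of 18 had treated hearts wholly below untreated hearts, as 2.5% of all probes did, and they measure 1 transcript at neighbouring positions. Probe 1, which had no value on 4 arrays, had values in 2 untreated hearts, 0.20 and 0.44, beside 0.02, 0.22, 0.12 and 0.13 in treated hearts. Within slide 3 the difference between treated and untreated hearts was -0.23 at probe 2 and -0.18 at probe 3. Untreated and db/+ hearts differed by 0.04, 0.10 and 0.07 at the 3 probes.

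Some members varied together from heart to heart, within groups. Deviations from the group means over 14 hearts had r = 0.96 between Hspa1a probe 2 and Hspa1b probe 1 (rho 0.87), which cannot be separated. Hspa1a probe 1 had r = 0.81 with Hsph1 (rho 0.77, r = 0.70 without the 2 farthest hearts) and 0.80 with Hspa8 probe 2 (rho 0.77, 0.72). With the brighter Hspa8 probe 1 it had a lower r of 0.54 (rho 0.51, 0.32). Bag3 probe 2 had 0.83 with Hsf1 probe 2 (rho 0.85, 0.84). Bag3 probe 1 and Hspa1a probe 1 had 0.01 (rho -0.12, -0.45). The 171 pairs of probes were computed over the same arrays and are given as descriptions.

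**Figure D4:**
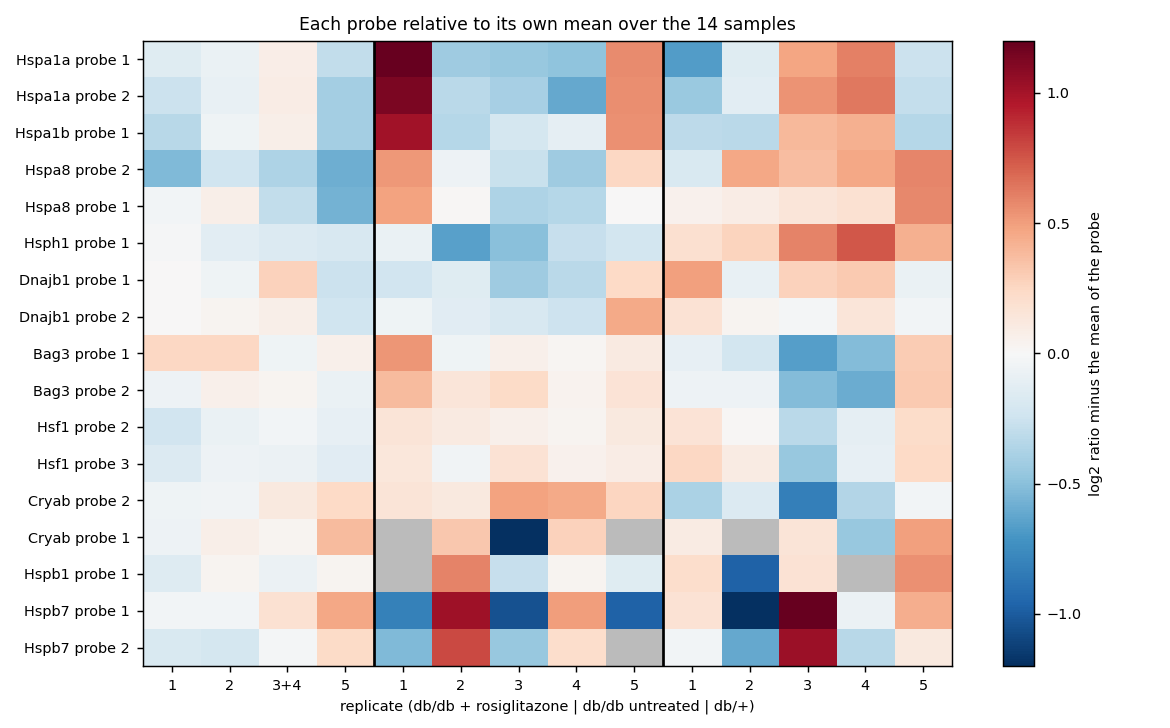
Each probe (rows) in each of 14 samples (columns, by replicate number within the 3 groups), as log2 ratio minus the mean of that probe, red above and blue below it, grey for no value. The rows of Hspa1a and of Hspa1b probe 1 are reddest in untreated heart 1 and red in untreated heart 5 and db/+ hearts 3 and 4, the Bag3 rows are blue in these db/+ hearts, and the Hspb7 rows are red in untreated heart 2 and db/+ heart 3.

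The genes with the pattern most like the mean of 5 members, Hspa1a, Hspa1b, Hsph1, Dnajb1 and Hspa8, were Socs6, Rbm12b1, Rbm12b2, Ints12 and Depdc1a. Each of the 5 entered by its brightest probe. They do not share 1 pattern, since Dnajb1 probe 1 had r = 0.30 with Hspa1a probe 1, 0.17 with Hsph1 and 0.07 with Hspa8 probe 1. Hspa1a and Hspa1b probe 1, which cannot be separated (r = 0.96), both enter the mean. Likeness was the correlation, over 14 hearts, of deviations from the group means with those of the mean of the 5 members. It was 0.89, 0.87, 0.87, 0.87 and 0.87 for these 5 genes, against a median of -0.01 and a 95th percentile of 0.54 over 14313 genes.

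Among 97 other chaperone genes tested, in 9 families, those of the endoplasmic reticulum were called most often. In untreated against db/+ hearts 1 of the 97 was higher and 9 lower (10.31%, beside 8.62% of all genes by their brightest probe, 4.66% higher and 3.95% lower). In treated against db/+ hearts 2 were higher and 12 lower (14.43%, beside 9.64%, 5.01% higher and 4.63% lower), and in treated against untreated hearts limma called 0, as SAM did, beside 0.0% of all genes. An unadjusted p under 0.05 in limma was reached there by 2 of 10 BAG and HSP70 partner genes. In the HSP90 list it was 1 of 17, in the TRiC and endoplasmic reticulum lists 1 of 14 each, and in the other lists 0. Over all tested probes 8.78% reached it in this comparison. Of 14 endoplasmic reticulum chaperones, which fold secreted and membrane proteins, 7 were lower in untreated than in db/+ hearts (median difference -0.50 over the 14, beside 0.01 over all genes) and 9 in treated than in db/+ hearts (-0.47).

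Among these, Sdf2l1, a partner of the chaperone BiP, had -3.19 to -2.59 in treated, -3.08 to -2.58 in untreated and -2.66 to -1.59 in db/+ hearts, with differences from db/+ of -0.98 in treated and -0.93 in untreated hearts (adjusted p = 0.0099 for both, limma). Serpinh1, the collagen chaperone HSP47, differed from db/+ by -0.85 in treated (adjusted p = 0.0126) and -0.77 in untreated hearts (0.0155, and 0.061 with db/+ replicate 3 and untreated replicate 2 left out together). The protein disulfide isomerase Pdia6 differed by -0.78 in treated (0.0118) and -0.62 in untreated hearts (0.0258). All of these calls were lost with slide as a fixed block, where the differences kept their sign, from -1.23 to -0.71. The call of Pdia6 in untreated hearts was also lost without db/+ replicate 3, 4 or 5 or untreated replicate 1 or 2 (-0.62 to -0.54 without them, adjusted p up to 0.066) and with normexp (-0.48, 0.072).

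HSP90 and its co-chaperones, the partner system of HSP70, held the gene with the widest difference among the 97. Fkbp5, a co-chaperone of steroid receptors on HSP90, had 0.48 to 0.75 in treated, 0.02 to 0.61 in untreated and -2.13 to -1.52 in db/+ hearts. It was 5.64-fold higher in treated (difference 2.50, adjusted p = 1.4e-06, limma) and 4.62-fold higher in untreated than in db/+ hearts (2.21, 3.2e-06). With slide as a fixed block it was still called in untreated hearts (2.30, adjusted p = 0.0085) and not in treated hearts (2.39, 0.084).

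Hsp90aa1, the inducible HSP90, had -2.28 to -2.03 in treated, -2.42 to -1.43 in untreated and -2.0 to -0.40 in db/+ hearts. It was lower by 1.04 in treated (adjusted p = 0.0354, limma) and by 0.94 in untreated than in db/+ hearts (0.044), and neither call was firm. The call in treated hearts was lost without db/+ replicate 2, 3 or 4 or treated replicate 1, 2 or 5 (adjusted p up to 0.082), and the call in untreated hearts without db/+ or untreated replicates 2, 3, 4 or 5 or treated replicate 1, 2 or 5 (adjusted p up to 0.104). Of the other families, Hspa14 was the only HSP70 relative called (1 of 7, -0.33 in untreated against db/+ hearts, adjusted p = 0.0283). In treated against db/+ hearts, Cct7 of the TRiC chaperonin (1 of 14, -0.46, 0.0164), the HSP70 and HSP90 partner Tomm34 (-0.45, 0.005) and the mitochondrial nucleotide exchange factor Grpel2 (1 of 11, 0.54, 0.0275) were called. Single arrays ended the calls of Hspa14 (without db/+ replicate 4 or 5 or untreated replicate 1, 3 or 4, adjusted p up to 0.065), Cct7 (without treated replicate 1 or 5, up to 0.053) and Grpel2 (without treated replicate 1, 2 or 5, up to 0.082). With slide as a fixed block, the calls of Hsp90aa1, Hspa14, Cct7, Tomm34 and Grpel2 were all lost. The other J-domain proteins (13 tested), small heat shock proteins (7), BAG proteins and HSP70 partners (10) and heat shock factors (4 of 7 tested) had 0 called in each comparison, with an unadjusted p under 0.05 for 2, 1, 2 and 0 genes in untreated against db/+ hearts.

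**Figure D5:**
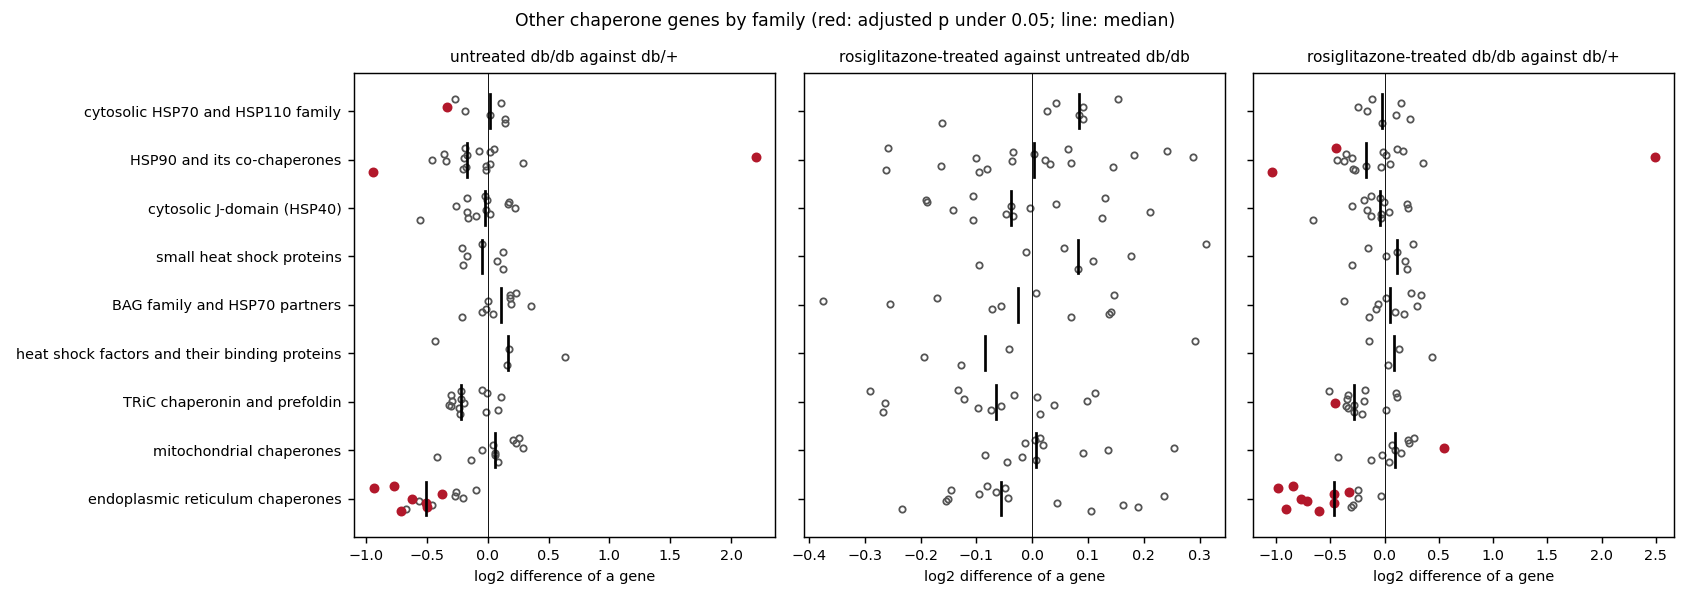
Log2 difference (x axis) of each other chaperone gene at its brightest probe, by family (rows) and comparison (panels, with different x ranges), with red filled circles for an adjusted p under 0.05 in limma and black lines for the median of a family. The endoplasmic reticulum row lies below 0 in both comparisons with db/+ hearts, and Fkbp5 stands apart at 2.21 and 2.50.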

How the data were processed

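Total RNA of each heart (Cy5) was hybridised with a mouse reference RNA (Cy3) to 2-colour Agilent arrays of 45018 spots. Per the file headers, the authors extracted intensities with Agilent Feature Extraction 9.5.1, subtracted background, normalized the dyes with LOWESS and deposited the log10 ratio of heart to reference. This step assumes that most probes are alike in both channels. The deposited series table repeats these ratios. Here the log10 ratios were converted to log2, spots of a probe were averaged without outlier flags, and probes well above background on at least 4 of 5 heart channels of a group were kept. Groups were fitted together with limma 3.58.1 in R 4.3.3 (lmFit and eBayes, treated replicates 3 and 4 averaged, 11 residual degrees of freedom), with Benjamini-Hochberg adjustment over 27593 probes. Intervals are 95%. RNA was isolated from each heart separately. The number of arrays limits the precision. All members and probes are named, and of each of 9 families up to 4 genes with the smallest p that are described here where called. Members and lists were chosen with earlier results of these data known. Alternatives were normexp (offset 50) with loess, scale normalization, the value table, flagged spots kept, other filters on dim probes, slide or replicate blocks, array weights, 2 groups only, SAM, replicates 3 and 4 separate and leaving out each array. Leaving out db/+ replicate 3 with untreated replicate 2 was added after seeing the data. Steps were tested on simulated data. Python 3.11.15, numpy 2.4.6, pandas 2.3.3, scipy 1.17.1, matplotlib 3.10.9 and statmod 1.5.0 were used.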

Additional observations from a re-analysis of the deposited data

Results flagged for a closer look

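In 4 of 55 groups of a member probe, 1 heart lay far from the rest of its group, by the gap to its nearest neighbour over the range of the group, and chance alone gives about 1 in 20 groups. Untreated heart 1 was high for Bag3 probe 1, at 3.46 (gap over range 0.721, against a critical value of 0.71). Untreated heart 5 was high for Dnajb1 probe 2, at -1.54 (0.717). Replicate 5 of db/+ was high for Hspa8 probe 1, at 0.41 (0.757), and replicate 1 of db/+ was low for Hspa8 probe 2, at -0.23 (0.72).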

How the results depend on the processing

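Over 29 settings, 1522 of 1537 recomputed values of the members found by name stayed as they were, called or not called, 10 lost a call, 5 gained one and 0 reversed. Another 108 values called in neither setting changed sign. Of the 54 results behind these values only Cryab probe 2 and Hspa8 probe 2 had a call, so most values that stayed were not called in either setting. All 10 losses fell on these calls. Cryab probe 2 lost its call with 0 of 15 arrays left out and in 1 of 14 other settings, and Hspa8 probe 2 with 6 of 15 and in 3 of 14. Hsph1 stayed as it was in 81 of 87 values, its uncalled comparison included, and lost a call in 6. SAM, the random slide block, the fit with no filter and the stricter filter gave no value for some probes with missing or dim values, 29 values in all. The count of member probes higher in untreated than in db/+ hearts, 1, was 0 with slide as a fixed block, 3 with it as a random block and 1 to 2 over the arrays left out in turn (2 without db/+ replicate 5). In treated against db/+ hearts, the count of higher member probes, 0, was 1 with replicates 3 and 4 separate and 1 with the random block, and the count of lower ones, 1, was 0 with normexp, 0 with the fixed block, 0 without db/+ replicate 3 and untreated replicate 2 together and 0 to 1 over the arrays left out. For the 97 other chaperone genes, the count higher in untreated than in db/+ hearts, 1, was 4 with normexp, 5 with the random block and 2 with the 2 hearts left out together, and the count lower, 9, was 5 with normexp, 5 with scale normalization, 0 with the fixed block, 16 with the random block, 3 in a fit of the 2 groups only, 3 with the 2 hearts left out together and 4 to 15 over the arrays left out. In treated against db/+ hearts the count higher, 2, was 0 with the fixed block and 1 to 3 over the arrays left out, and the count lower, 12, was 5 with normexp, 0 with the fixed block, 6 in a fit of the 2 groups only, 7 with the 2 hearts left out together and 4 to 14 over the arrays left out. The disulfide isomerase Pdia3, lower by 0.46 in treated and by 0.51 in untreated than in db/+ hearts, reversed with normexp (0.31 in both), and Grpel2 with the fixed block (-0.053 in treated against db/+ hearts). The cause of these changes was not tested. Over all probes, the counts higher and lower were 1206 and 935 in untreated against db/+ hearts (2109 and 947 with normexp, 18 and 16 with the fixed block, 2700 and 2206 of 25998 probes with the random block, whose estimated correlation was -0.11) and 1239 and 1162 in treated against db/+ hearts (1023 and 452 with normexp, 0 and 4 with the fixed block, 2407 and 2477 with the random block). Replicate numbers did not pair the hearts (r of deviations -0.32 to 0.14 between same-numbered hearts), and a fit with the replicate number as a block gave 911 and 744, and 1348 and 1173, with no member call changed.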
